A study of Homo sapiens with 15 samples.

Results

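The glucocorticoid receptor gene NR3C1 and 8 genes that the activated receptor is known to induce (FKBP5, TSC22D3, PER1, DUSP1, SGK1, ZBTB16, KLF9 and CRISPLD2) were compared in A549 cells, a human lung carcinoma line, under geldanamycin, a benzoquinone ansamycin that occupies the nucleotide site of HSP90 and so blocks this chaperone. The genes were listed by name, and all probe sets annotated to exactly 1 of their symbols were taken. Of the 9 genes, 8 had such a probe set, 23 in all among 54675 probe sets on the array. PER1, a core component of the circadian clock, shares each of its 4 probe sets with a second symbol and is named only. The brightest probe set of a gene, that with the highest mean over all arrays, stands for it among 19775 genes, and the others are given beside it.

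Total RNA was measured on 15 arrays in 5 groups of 3. At 24 h these were geldanamycin at 40 nM, the dose the labels call IC50, and vehicle, DMSO at 0.4%. At 48 h they were vehicle, geldanamycin at 10 nM, called IC20, and geldanamycin at 40 nM. All cells had attached for 24 h before treatment and grew in medium with 10% FBS, and the labels name no added glucocorticoid. The model is 1 cell line. Whether the 3 arrays of a group stem from separate cultures is not said in the labels, and the p-values cover the spread among arrays only, which may be technical.

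Without hormone, the glucocorticoid receptor is held in the cytosol in a complex with HSP90, the cochaperone p23 (gene PTGES3) and an immunophilin such as FKBP4 or FKBP5. That complex keeps the pocket of the receptor open to hormone and protects the receptor from breakdown, which makes the receptor protein a classic HSP90 client. Bound to hormone, the receptor enters the nucleus, binds response elements and induces its targets, while it represses many inflammatory genes. The lung is one of its main therapeutic tissues, and A549 cells are widely used to study it. Arrays measure transcripts, so receptor protein and its location were not measured here.

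Values are log2 RMA expression values as the authors deposited them. Changes are differences of group means on that scale, with the standard error of a limma fit to all 15 arrays. A gene is called changed where its p, adjusted by Benjamini-Hochberg over all genes, was below 0.05. Values of a probe set other than the brightest carry the p of a second limma fit, over all 54613 probe sets that are not controls. The mean of all probe sets was 5.13 to 5.14 on every array at 24 h and 5.52 on every array at 48 h, so the times are taken as normalized separately and levels are compared only within a time.

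Several facts of the whole series bear on these genes. The keratin and other lung epithelium markers had a median level of 12.8 to 13.5 over the groups, with EPCAM the lowest at 3.97 to 5.63, and 3 leukocyte markers lay between 2.93 and 5.11. The 10 nM arrays stood apart in their poly-A spike, hybridization and ACTB controls. Hybridization controls averaged between 10.55 and 10.73 on the 10 nM arrays. At 48 h they averaged 10.26 to 10.48 on the vehicle arrays and 10.19 to 10.43 on the 40 nM arrays. Poly-A spike controls, added to RNA before labelling, averaged between 3.33 and 3.40 on the 10 nM arrays, against 5.86 to 5.99 on the vehicle arrays at 48 h. The 3' minus 5' difference of the ACTB control averaged 2.68 ± 0.03 at 10 nM, against 0.35 ± 0.06 in vehicle at 48 h (SD, n = 3 each). That of the GAPDH control did not stand apart, at 0.129 ± 0.004 at 10 nM and 0.146 ± 0.026 in vehicle at 48 h. The fibroblast markers had a summed level of 23.51 to 24.23 at 10 nM, against 27.96 to 28.34 in vehicle at 48 h. The part of these differences in any result at 10 nM was not tested.

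Promoters of the genes were searched for the element the receptor binds, in RefSeq windows of 300 bases on GRCh38.p14, from 250 before to 50 after an annotated start. Of the 9 genes, 8 (all but ZBTB16) matched by symbol, with 20 such windows. The full palindrome, AGAACA and TGTTCT parted by any 3 bases and read on both strands, was in 0 of them and in 1 of 35116 windows of all genes. One arm of it, TGTTCT on either strand, which the palindrome also holds, was in 2 of the 20 windows and in 14.8% of all windows. The cAMP response element TGACGTCA, a palindrome bound by CREB that overlaps no other match here, was in 1 of the 20, that of DUSP1, and in 1.85% of all. No match says only that these letters are absent from the window, and a match is not a measured binding site. TSC22D3, which had the largest fall at 24 h, has no match in its windows, and the share of windows with the arm is not above that of all genes. The 3 windows with a match are shown to let the letters be read beside the values of FKBP5, SGK1 and DUSP1. Capitals mark the match, AGAACA (the arm read on the other strand) in the first and second and TGACGTCA in the third.
FKBP5, chr6:35728534-35728833, minus strand: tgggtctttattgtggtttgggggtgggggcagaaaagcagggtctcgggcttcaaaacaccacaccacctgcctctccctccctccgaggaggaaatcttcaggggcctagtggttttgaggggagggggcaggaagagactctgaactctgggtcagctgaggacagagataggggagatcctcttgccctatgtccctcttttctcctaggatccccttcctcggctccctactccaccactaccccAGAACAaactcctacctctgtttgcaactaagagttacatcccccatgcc
SGK1, chr6:134177812-134178111, minus strand: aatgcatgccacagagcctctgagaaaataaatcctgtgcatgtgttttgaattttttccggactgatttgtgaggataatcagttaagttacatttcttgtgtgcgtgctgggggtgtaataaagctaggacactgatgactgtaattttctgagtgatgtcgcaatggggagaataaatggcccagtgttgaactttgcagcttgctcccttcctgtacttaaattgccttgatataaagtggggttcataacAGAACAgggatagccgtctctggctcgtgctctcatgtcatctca
DUSP1, chr5:172771146-172771445, minus strand: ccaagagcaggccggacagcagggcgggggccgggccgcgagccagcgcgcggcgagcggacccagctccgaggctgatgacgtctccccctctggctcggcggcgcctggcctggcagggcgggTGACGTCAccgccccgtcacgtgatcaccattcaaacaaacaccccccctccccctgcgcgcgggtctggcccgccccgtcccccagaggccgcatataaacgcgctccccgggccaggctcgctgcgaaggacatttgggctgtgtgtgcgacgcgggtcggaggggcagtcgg
The arm begins at the annotated start itself in FKBP5 (position 1) and at position 6 in SGK1, and the DUSP1 element begins at position -125.

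After 24 h at 40 nM the receptor transcript was higher and 3 of its targets were lower. NR3C1 rose 1.44-fold, while TSC22D3 fell 1.99-fold, FKBP5 1.47-fold and SGK1 1.44-fold. KLF9 rose 1.27-fold by its brightest probe set, and DUSP1, CRISPLD2 and ZBTB16 were not called. So 2 of the 8 genes rose and 3 fell, where 14.8% of all genes rose and 16.7% fell. The median log2 change of the 8 genes was -0.08, against -0.007 over all genes. In such bulk RNA, fewer cells that make a transcript and less of it per cell cannot be told apart.

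**Figure D1:**
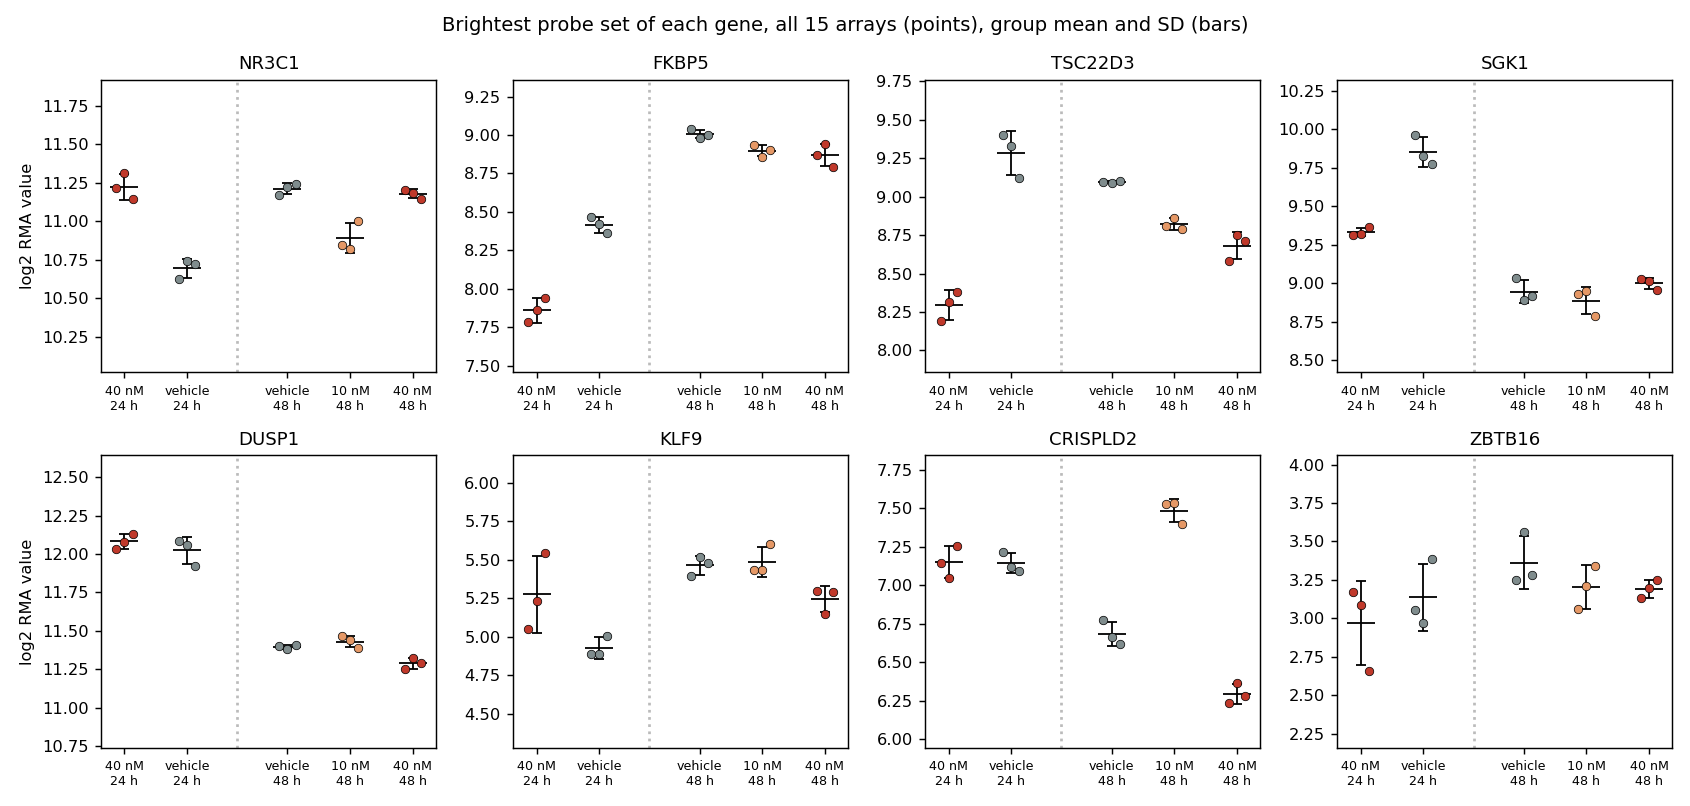
Log2 RMA values of the brightest probe set of each of the 8 genes on the 15 arrays (points, coloured by dose), with the group mean and SD (bars); the dotted line parts the arrays of 24 h from those of 48 h, whose scales differ. NR3C1 stood between 11.15 and 11.32 in the 40 nM arrays at 24 h, above the vehicle arrays, and TSC22D3, FKBP5 and SGK1 stood below theirs.

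NR3C1 (chr5:143277931-143435512, GRCh38.p14 as all positions here) encodes the receptor itself, and at 24 h its brightest probe set (201865_x_at) read 11.22, 11.32 and 11.15 in the 40 nM arrays, against 10.63, 10.74 and 10.72 in the vehicle arrays. The groups did not overlap, and the log2 change was 0.53 ± 0.06 (SE; limma adjusted p = 1.6e-05). The other 4 probe sets of NR3C1 rose as well. The set 201866_s_at read 9.63, 9.43 and 9.82 at 40 nM, against 9.11, 8.97 and 8.87 in vehicle, a change of 0.64 ± 0.10. The set 211671_s_at changed by 0.66 ± 0.06 and 216321_s_at by 0.73 ± 0.08. The dim set 232431_at averaged 4.98 ± 0.32 at 40 nM and 4.13 ± 0.41 in vehicle (SD, n = 3 each), a change of 0.86 ± 0.18 (limma adjusted p = 0.0025). None of the 5 had overlapping groups at 24 h, though the share of all probe sets without overlap was not counted. Of all probe sets, 10.3% were called higher and 10.7% lower in this comparison. Across the 23 probe sets of the 8 genes, 6 were called higher, 5 of them from NR3C1, and 7 lower.

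**Figure D2:**
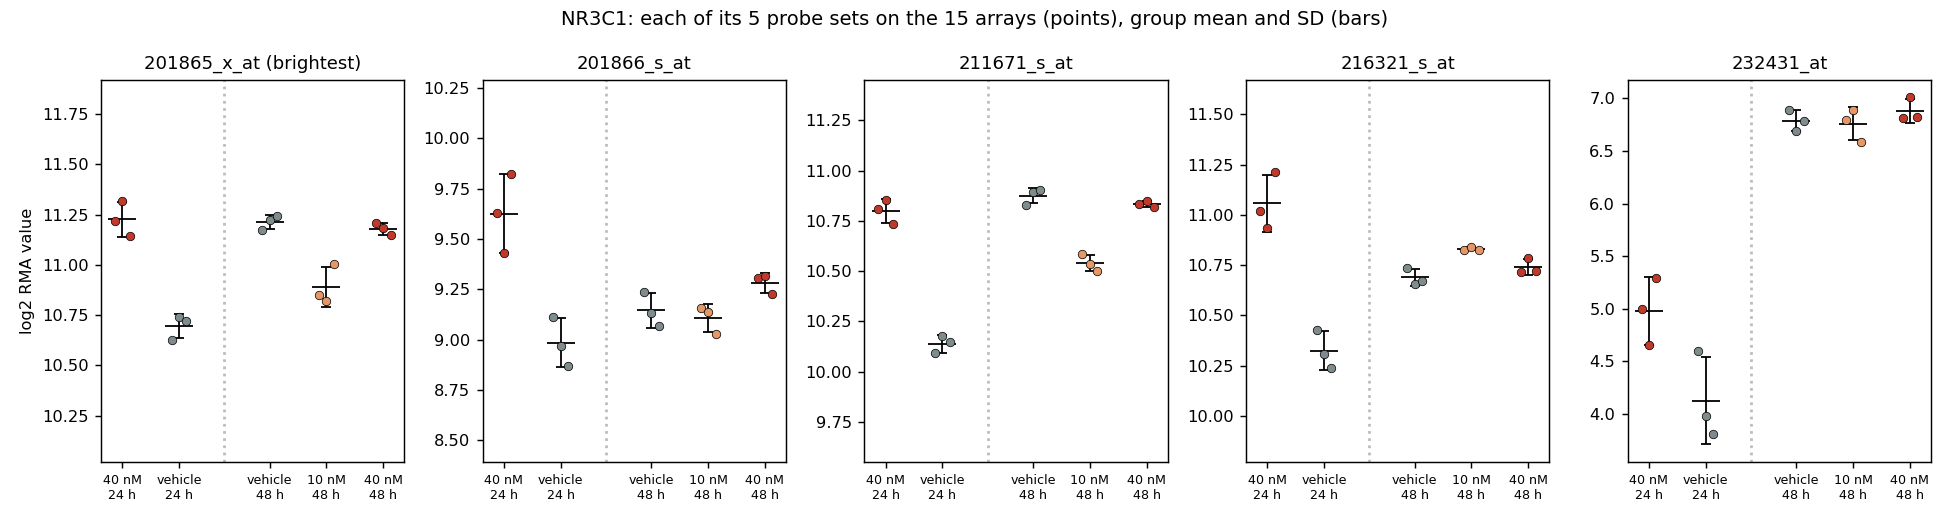
Log2 RMA values of each of the 5 NR3C1 probe sets on the 15 arrays (points), with group mean and SD (bars), arrays of 24 h left of the dotted line. All 5 were higher at 40 nM than in vehicle at 24 h; at 48 h only 201865_x_at and 211671_s_at were called, lower at 10 nM, and no set was called at 40 nM.

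TSC22D3 (chrX:107713221-107775988), also known as GILZ, is a leucine zipper protein that carries part of the anti-inflammatory action of glucocorticoids, and it had the largest fall of the 8 genes. It read 8.19, 8.31 and 8.38 at 40 nM, against 9.40, 9.33 and 9.12 in vehicle, a log2 change of -0.99 ± 0.08 (limma adjusted p = 1.8e-07). Every 40 nM array lay below every vehicle array. Its second probe set, 207001_x_at, fell by 0.54 ± 0.10, while 235364_at, at 3.06 and 3.37 on average in 40 nM and vehicle arrays, was not called (-0.31 ± 0.17).

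FKBP5 (chr6:35573590-35728583) encodes the immunophilin FKBP51, which joins the receptor complex, lowers its affinity for hormone and so closes a negative feedback. It read 7.78, 7.86 and 7.94 at 40 nM, against 8.47, 8.42 and 8.36 in vehicle, a change of -0.56 ± 0.06 (limma adjusted p = 5.1e-06). All 3 of its probe sets fell, 224856_at by 0.40 ± 0.11 and 204560_at by 0.45 ± 0.11. SGK1 (chr6:134169256-134318112), a kinase that controls sodium channels and cell survival, has 1 probe set. It read 9.31, 9.32 and 9.36 at 40 nM, against 9.96, 9.83 and 9.78 in vehicle, a change of -0.52 ± 0.07 (limma adjusted p = 2.3e-05). The 40 nM arrays of SGK1 lay closer together than the vehicle arrays and all below them.

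KLF9 (chr9:70384604-70414657), a Krüppel-like repressor and an early receptor target, is dim, and its probe sets disagreed. The brightest, 203542_s_at, read 5.05, 5.23 and 5.55 at 40 nM, against 4.89, 4.89 and 5.01 in vehicle (0.35 ± 0.10, limma adjusted p = 0.018). The groups did not overlap but came close, as the lowest 40 nM array and the highest vehicle array show. The call ended when array 3 of the 40 nM group was left out (0.21, adjusted p = 0.073), when array 2 of the vehicle group was (0.33, adjusted p = 0.058) and with the compared groups alone (adjusted p = 0.0995). Its set 230636_s_at was lower, at 3.12, 3.21 and 2.77 at 40 nM against 3.35, 3.45 and 3.62 in vehicle (-0.44 ± 0.11), and the other 3 sets were not called. With the mean of its 5 sets KLF9 stood at -0.06 and was not called (adjusted p = 0.60).

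Of the genes not called at 24 h, DUSP1 (chr5:172768096-172771195) is a phosphatase that switches off p38, JNK and ERK, and it is an immediate early gene as well as a receptor target. It was bright, at 12.04, 12.08 and 12.13 at 40 nM, against 12.09, 12.06 and 11.92 in vehicle. The groups overlapped, and the 95% interval of the change was -0.06 to 0.18. Its sets 201044_x_at (0.27 ± 0.10, limma adjusted p = 0.087) and 226578_s_at (0.008 ± 0.17) were not called either. CRISPLD2 (chr16:84819985-84909508), a secreted protein that binds endotoxin, read 7.15, 7.05 and 7.25 at 40 nM, against 7.21, 7.12 and 7.09 in vehicle, with an interval of -0.14 to 0.16. ZBTB16 (chr11:114059711-114256770), a zinc finger repressor (PLZF), averaged 2.97 ± 0.27 at 40 nM and 3.14 ± 0.22 in vehicle (SD, n = 3 each). These lie near 3.13 and 3.12, the mean lower quartile of all probe sets in the 40 nM and vehicle arrays, and the interval was -0.46 to 0.13.

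After 48 h at 40 nM the receptor transcript no longer differed detectably from vehicle, and of the targets only TSC22D3 and CRISPLD2 were called, both lower. Of the 8 genes 0 rose and 2 fell, where 10.5% of all genes rose and 10.7% fell; the median change was -0.15, against -0.02 over all genes. Of the 23 probe sets 0 were called higher and 2 lower, where 6.49% of all probe sets were higher and 6.02% lower. At an unadjusted p below 0.05 limma gave 0 genes and 0 probe sets higher, and 3 genes and 3 probe sets lower, the third gene being FKBP5; over all features 5925 of 19775 genes and 12035 of 54613 probe sets had such a p, in either direction.

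At 48 h NR3C1 read 11.21, 11.18 and 11.15 at 40 nM, against 11.17, 11.23 and 11.24 in vehicle. The groups overlapped, and the change was -0.03 with a 95% interval of -0.17 to 0.10 (limma adjusted p = 0.82). Its other 4 sets changed by between -0.04 and 0.14, and none was called. TSC22D3 read 8.58, 8.75 and 8.71 at 40 nM, against 9.09, 9.09 and 9.10 in vehicle, a change of -0.42 ± 0.08 (limma adjusted p = 0.0011), while 207001_x_at (-0.26, adjusted p = 0.13) and 235364_at (-0.16) were not called. CRISPLD2 read 6.23, 6.36 and 6.28 at 40 nM, against 6.77, 6.66 and 6.62 in vehicle, a change of -0.39 ± 0.07 (limma adjusted p = 0.0010). In both genes every 40 nM array lay below every vehicle array. The second CRISPLD2 set, 1555809_at, stood at -0.04 ± 0.21, and the mean of the 2 sets was not called (-0.22, adjusted p = 0.16).

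The rest of the genes at 48 h and 40 nM gave small differences. FKBP5 averaged 8.87 ± 0.07 at 40 nM and 9.01 ± 0.03 in vehicle (SD, n = 3 each), without overlap, with an interval of -0.27 to -0.009 and an adjusted p of 0.14 in limma. SGK1 read 9.03, 9.01 and 8.96 at 40 nM, against 9.03, 8.89 and 8.91 in vehicle, overlapping, with an interval of -0.09 to 0.20. For DUSP1 the other sets stood at 0.02 ± 0.10 (201044_x_at) and -0.17 ± 0.17 (226578_s_at). The brightest set of DUSP1 averaged 11.29 ± 0.04 at 40 nM and 11.40 ± 0.01 in vehicle, and its groups did not overlap (-0.11 ± 0.06, limma adjusted p = 0.22; 0.047 with a trended, robust prior). KLF9 stood at -0.22 ± 0.10 (limma adjusted p = 0.17; 0.045 with the compared groups alone), and ZBTB16 at -0.17 ± 0.14.

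**Figure D3:**
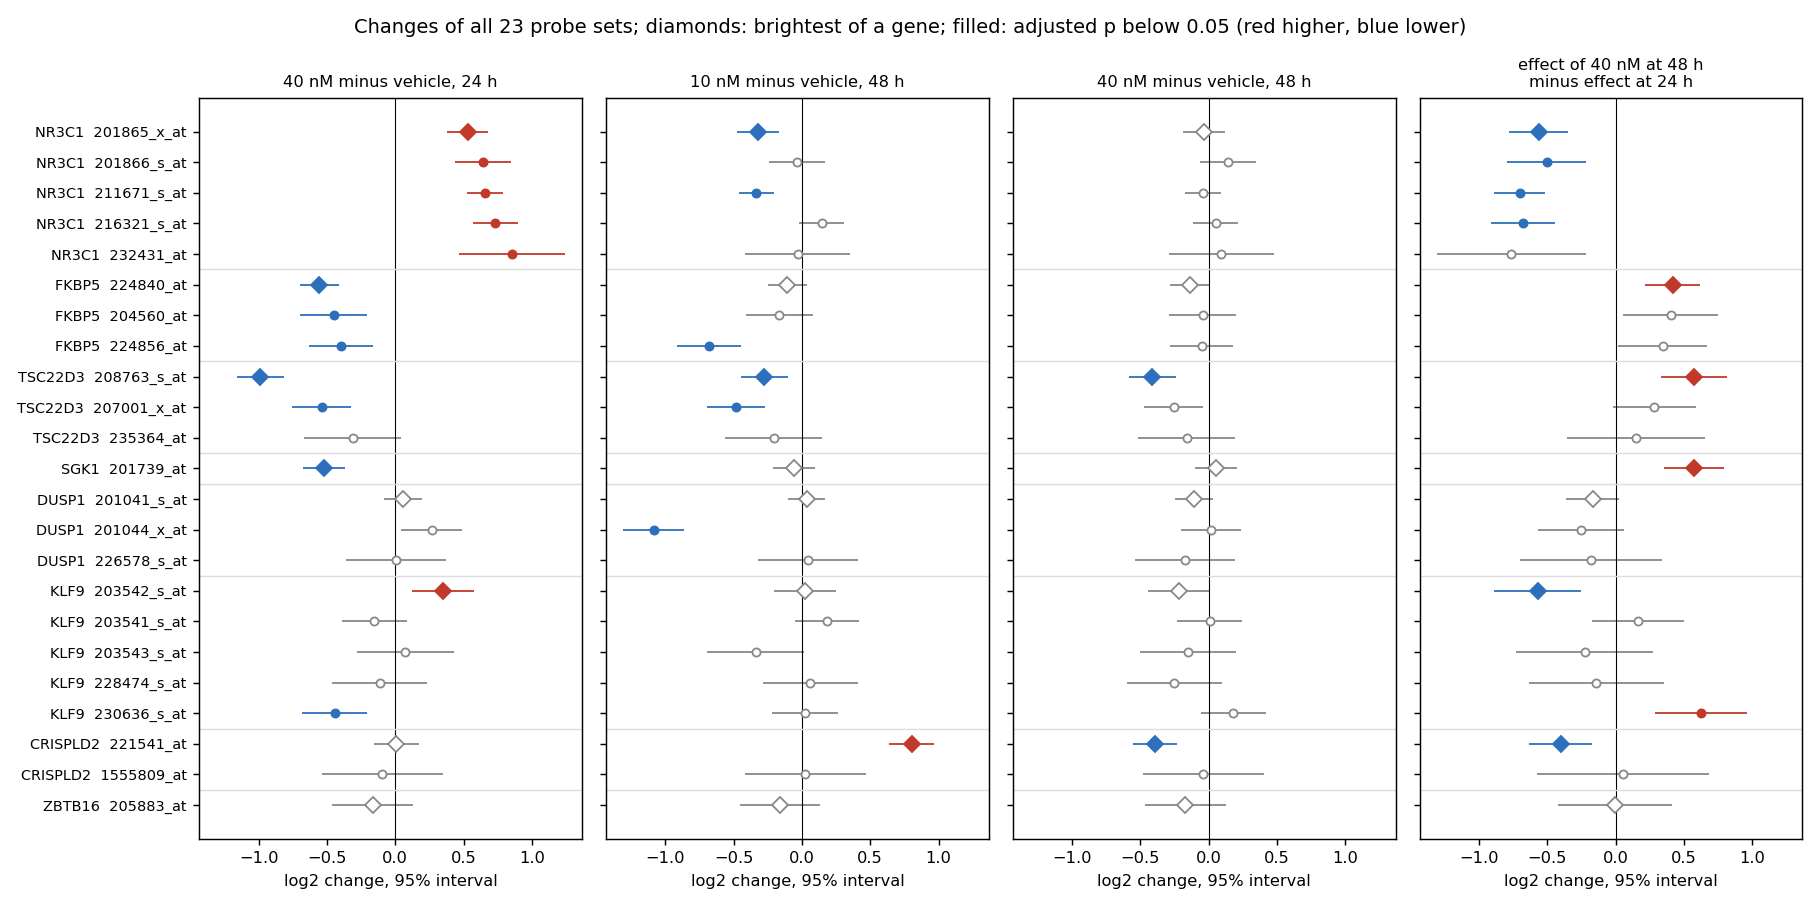
Log2 changes with 95% intervals of all 23 probe sets in 4 comparisons, grouped by gene, the brightest set of a gene as a diamond; filled symbols have a limma adjusted p below 0.05 over all probe sets, red where higher and blue where lower. The 5 NR3C1 sets lie between 0.53 and 0.86 at 24 h and between -0.04 and 0.14 at 48 h and 40 nM, and at 10 nM the sets of NR3C1, FKBP5, DUSP1 and CRISPLD2 spread apart.

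Whether 40 nM acted differently at 48 h and at 24 h was tested as the change at 48 h minus the change at 24 h, each against its own vehicle. The times are taken as normalized separately. So an effect of time cannot be told apart from a difference in scale between the arrays of 24 h and of 48 h. This difference was called for 6 of the 8 genes, 3 higher and 3 lower, where 9.18% of all genes were called higher and 8.11% lower; over probe sets 4 of 23 were higher and 6 lower, where 5.04% and 4.54% of all were. The falls of TSC22D3, FKBP5 and SGK1 were smaller at 48 h. The effect at 48 h minus that at 24 h was 0.57 ± 0.11 for TSC22D3, 0.42 ± 0.08 for FKBP5 and 0.58 ± 0.09 for SGK1 (limma adjusted p = 0.0017, 0.0030 and 0.00058). The rise of NR3C1 was smaller by 0.56 ± 0.09 (difference -0.56, limma adjusted p = 0.00056), and 4 of its 5 sets were called in the same direction, the fifth standing at -0.76 (adjusted p = 0.080). KLF9 differed by -0.57 ± 0.15 and CRISPLD2 by -0.40 ± 0.10 (limma adjusted p = 0.015 and 0.012). For KLF9 the set 230636_s_at was called the other way (0.62 ± 0.16), and the CRISPLD2 call ended with array medians subtracted (adjusted p = 0.065). Averaged over all sets of the gene, the calls of TSC22D3 (0.34, adjusted p = 0.058), KLF9 (-0.03) and CRISPLD2 (-0.17) ended. DUSP1 stood at -0.17 ± 0.08 (limma adjusted p = 0.19; 0.037 with cyclic loess and 0.034 with an intensity trend), and ZBTB16 (-0.005 ± 0.20) was not called.

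At 10 nM and 48 h, CRISPLD2 rose and TSC22D3 and NR3C1 fell by their brightest sets. So 1 of the 8 genes rose and 2 fell, where 14.4% of all genes rose and 11.9% fell; over the 23 probe sets 1 was higher and 6 lower, where 9.8% and 9.28% of all were. CRISPLD2 read 7.53, 7.53 and 7.40 at 10 nM, against 6.77, 6.66 and 6.62 in vehicle, a rise of 0.80 ± 0.07 or 1.74-fold (limma adjusted p = 1.1e-06). Every 10 nM array was above every vehicle array, in the direction opposite to 40 nM. Its second set, near 5.5 in both groups, was not called (0.02, interval -0.42 to 0.47), and this interval does not meet that of the brightest set in the same fit, 0.64 to 0.97. The mean of the 2 sets was called with 0.41, a smaller rise. TSC22D3 read 8.81, 8.86 and 8.79 at 10 nM, against 9.09, 9.09 and 9.10 in vehicle (-0.28 ± 0.08, limma adjusted p = 0.013; 0.052 with array medians subtracted), and 207001_x_at fell by 0.48 ± 0.10.

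The probe sets of 4 genes, CRISPLD2 among them, disagreed at 10 nM, on the arrays whose poly-A spike, hybridization and ACTB controls stood apart. NR3C1 fell by 0.32 ± 0.06 by its brightest set, at 10.85, 10.82 and 11.00 at 10 nM against 11.17, 11.23 and 11.24 in vehicle (limma adjusted p = 0.0016), and 211671_s_at fell by 0.33 ± 0.06. The set 216321_s_at read 10.83, 10.84 and 10.83 at 10 nM, against 10.74, 10.66 and 10.67 in vehicle, a change of 0.14 with a 95% interval of -0.02 to 0.31, which does not meet that of the brightest set in the same fit, -0.47 to -0.17. The sets 201866_s_at and 232431_at stood at -0.04 and -0.03. With the mean of its 5 sets NR3C1 was not called (-0.12, adjusted p = 0.24). FKBP5 was not called by its brightest set (-0.11 ± 0.06, limma adjusted p = 0.23), whereas 224856_at fell by 0.68 ± 0.11, at 6.45, 6.41 and 6.09 at 10 nM against 7.12, 6.86 and 7.03 in vehicle. DUSP1 stood at 0.03 ± 0.06 by its brightest set, whereas 201044_x_at fell by 1.09 ± 0.10, at 5.46, 5.37 and 5.50 at 10 nM against 6.58, 6.26 and 6.74 in vehicle. The mean of the 3 FKBP5 sets was called (-0.32, adjusted p = 0.0042), as was that of the 3 DUSP1 sets (-0.34, adjusted p = 0.0026). Where each set lies along its transcript was not analysed here. The part of the 3' to 5' difference of the ACTB control on these arrays was not tested. SGK1 (-0.06 ± 0.07), KLF9 (0.02 ± 0.10) and ZBTB16 (-0.16 ± 0.14) were not called.

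Between the doses at 48 h, CRISPLD2 had the largest difference. It was 2.29-fold lower at 40 nM than at 10 nM (-1.19 ± 0.07, limma adjusted p = 3.0e-08) by its brightest set. Its second set stood at -0.06 ± 0.21 and was not called, and the mean of the 2 sets was called at -0.63. NR3C1 was higher by 0.29 ± 0.06 (limma adjusted p = 0.0037) in its brightest set, though not with the mean of its sets (0.16, adjusted p = 0.097). These were 1 of 8 genes higher and 1 lower, where 11.9% of all genes were higher and 14.5% lower; over probe sets 4 of 23 were higher and 1 lower, where 9.11% and 9.63% of all were. The sets 224856_at of FKBP5 (0.63 ± 0.11) and 201044_x_at of DUSP1 (1.10 ± 0.10) were among those higher at 40 nM, and they are the sets that were lower at 10 nM than in vehicle. TSC22D3 did not differ detectably between the doses (-0.14, interval -0.30 to 0.02), and FKBP5 did not by its brightest set (-0.03, interval -0.16 to 0.10), though the mean of its 3 sets was called higher at 40 nM (0.24, adjusted p = 0.025). DUSP1 stood at -0.14 ± 0.06 (limma adjusted p = 0.080) and was called with cyclic loess (adjusted p = 0.044), with an intensity trend (0.0065), without the dimmest 40% of genes (0.032) and without replicate 3 of the vehicle at 24 h (0.046), but with the mean of its 3 sets it was called the other way (0.25, adjusted p = 0.020). SGK1 (0.11 ± 0.07) was called with cyclic loess (adjusted p = 0.023), and KLF9 (-0.24 ± 0.10) without replicate 3 of the 40 nM arrays at 24 h (0.027).

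Other genes of the pathway were counted from lists chosen by known role. Their counts stand against the shares of all genes called higher and lower, which were 14.8% and 16.7% at 24 h and 40 nM, 14.4% and 11.9% at 10 nM, and 10.5% and 10.7% at 48 h and 40 nM, and no list was tested against the other genes. The chaperone list holds parts of the HSP90 and HSP70 machinery that loads hormone-ready receptor, with 13 of 16 genes measured by a single-symbol probe set. At 24 h and 40 nM 9 rose and 2 fell, with a median of 0.43. ST13 (HIP), an HSP70 cochaperone, rose by 0.90 ± 0.05, BAG1 by 0.53 ± 0.07, DNAJA1 by 0.52 ± 0.05 and FKBP4, the immunophilin that competes with FKBP5 for the complex, by 0.49 ± 0.07. HSP90AB1 and HSP90AA1, the constitutive and the inducible HSP90, rose by 0.53 ± 0.05 and 0.30 ± 0.05. PTGES3 (p23), which stabilises the closed chaperone, fell by 0.17 ± 0.05. FKBP4 thus moved opposite to FKBP5 at 24 h. At 48 h and 40 nM 5 rose and 0 fell (median 0.09; 1 fell at an unadjusted p below 0.05 in limma), among them FKBP4 by 0.41 ± 0.07, ST13 by 0.38 ± 0.05, CDC37, which brings kinases to HSP90, by 0.27 ± 0.07 and the HSP40 protein DNAJA1 by 0.19 ± 0.05, while PTGES3 stood at -0.11 ± 0.05 (limma adjusted p = 0.14). At 10 nM 2 rose and 7 fell (median -0.20), with HSP90AB1 lower by 0.38 ± 0.05 and FKBP4 at 0.02 ± 0.07.

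Other genes induced by glucocorticoid were called in both directions in each comparison. Of 30 measured genes, 12 rose and 7 fell at 24 h and 40 nM (median 0.11), 9 rose and 7 fell at 48 h and 40 nM (median 0.07), and 14 rose and 9 fell at 10 nM (median 0.20). At 24 h the cell cycle inhibitor CDKN1C rose by 2.81 ± 0.13, the transcription factor CEBPD by 1.86 ± 0.08, the pyruvate dehydrogenase kinase PDK4 by 1.78 ± 0.07 and CAVIN2 by 1.62 ± 0.09. In vehicle at 24 h CAVIN2 averaged 4.39 and CDKN1C 4.93, where the median of all probe sets averaged 4.37. At 48 h and 40 nM the NF-kB inhibitors TNFAIP3 and NFKBIA rose by 2.14 ± 0.09 and 1.57 ± 0.06, PDK4 by 0.97 ± 0.07 and IGFBP1 by 0.82 ± 0.07. Of those that fell, chosen after their values were seen, the lipase inhibitor ANGPTL4 fell by 1.23 ± 0.11 and the metallothionein MT2A by 0.91 ± 0.05 at 24 h, and the transcription factor SNAI2 by 0.80 ± 0.06 at 48 h and 40 nM. TNFAIP3 and NFKBIA are also targets of NF-kB, so their place on this list is not particular to the receptor.

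Genes that glucocorticoids repress, mostly cytokines, chemokines and adhesion molecules, are largely NF-kB targets too. Of 17 measured, 4 rose and 3 fell at 24 h and 40 nM (median 0.05), 10 rose and 1 fell at 10 nM (median 0.34), and 13 rose and 1 fell at 48 h and 40 nM (median 1.72, against -0.02 over all genes). For 12 of the 17 the effect of 40 nM was called higher at 48 h than at 24 h, and for 0 lower. Of all genes 9.18% were called higher and 8.11% lower in this comparison. The counts were the same at an unadjusted p below 0.05 in limma, which 5404 of 19775 genes had in either direction. At 48 h VCAM1, an adhesion molecule for leukocytes, rose by 4.10 ± 0.15 at 10 nM and by 2.67 ± 0.15 at 40 nM. CCL5, a chemokine for T cells, rose by 3.69 ± 0.12 and 2.98 ± 0.12 at these doses, while PTGS2, the inducible cyclooxygenase, rose by 2.07 ± 0.14 at 24 h and 2.48 ± 0.14 at 48 h with 40 nM. CCL2, a chemokine for monocytes, rose by 1.68 ± 0.09 at 24 h and 3.19 ± 0.09 at 48 h with 40 nM. IL11 fell by 1.71 ± 0.06 at 24 h and rose by 0.67 ± 0.06 at 48 h, both at 40 nM. MMP9 fell at both times at 40 nM, by 0.69 ± 0.14 and 0.42 ± 0.14. Levels in vehicle were low for some of these genes. MMP9 averaged 5.56 at 24 h and 5.12 at 48 h, and VCAM1 4.38 at 48 h. The median of all probe sets averaged 4.37 in vehicle at 24 h and 4.87 in vehicle at 48 h.

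**Figure D4:**
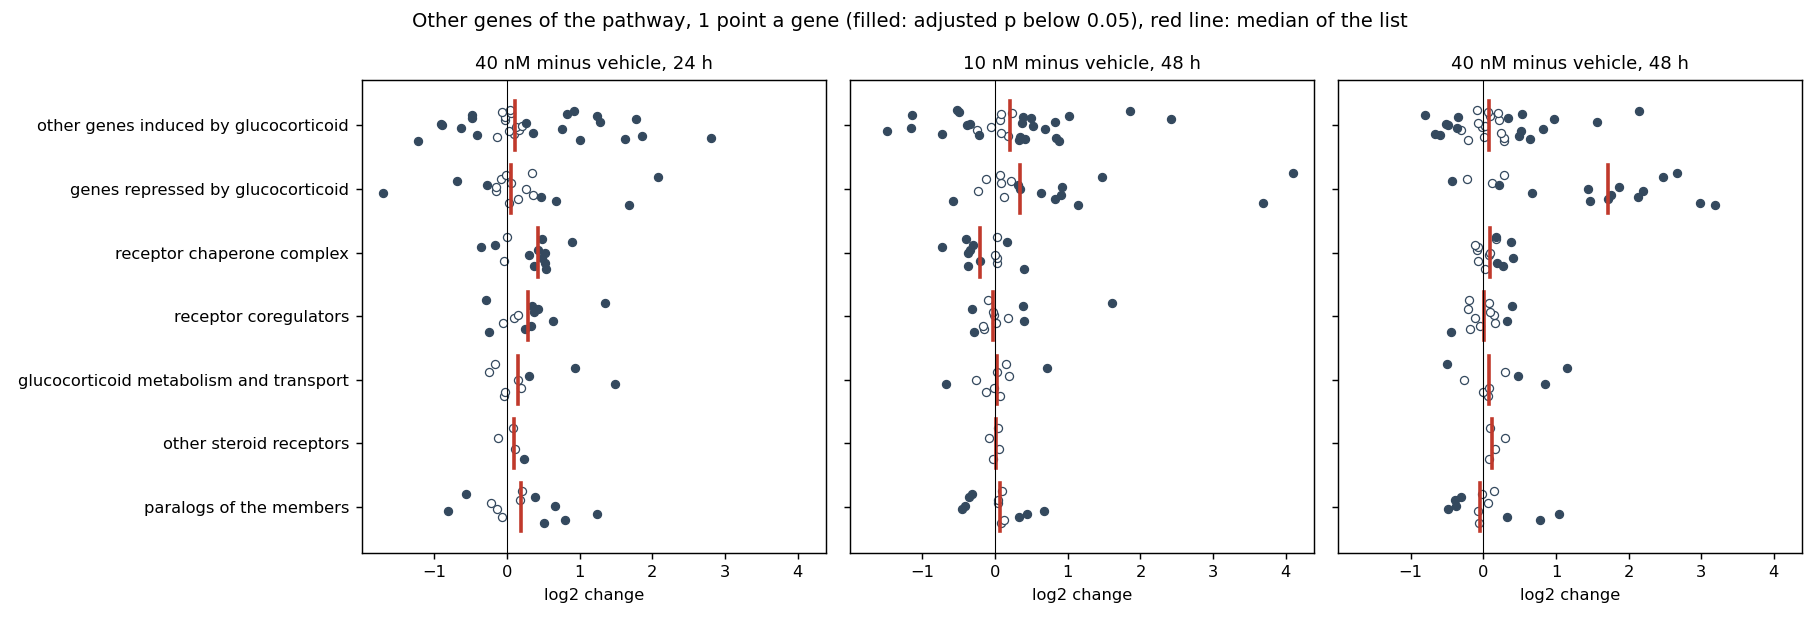
Log2 change of each measured gene (points, filled where the limma adjusted p was below 0.05) in 7 lists of other pathway genes, in 3 comparisons with vehicle, with the median of each list as a red line. The genes repressed by glucocorticoid had a median of 1.72 at 48 h and 40 nM and 0.05 at 24 h, and the chaperone list 0.43 at 24 h.

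Coregulators of the receptor help it to switch genes on or off. Of 12 measured 7 rose and 2 fell at 24 h (median 0.29), 2 rose and 1 fell at 48 h and 40 nM (median 0.02), and 3 rose and 2 fell at 10 nM. The coactivator PPARGC1A rose by 1.35 ± 0.13 at 24 h, HEXIM1 by 0.64 ± 0.06, and the p160 coactivators NCOA2 and NCOA1 by 0.42 ± 0.08 and 0.37 ± 0.06. At 48 h and 40 nM the corepressor NRIP1 rose by 0.39 ± 0.08 and the methyltransferase CARM1 fell by 0.44 ± 0.07. Of 9 genes of glucocorticoid metabolism and transport, 3 rose and 0 fell at 24 h (1 fell at an unadjusted p below 0.05 in limma) and 3 rose and 1 fell at 48 h and 40 nM. CYP3A5, which oxidises steroids, rose by 1.48 ± 0.14 at 24 h. SERPINA6, the corticosteroid binding globulin of plasma, rose by 0.94 ± 0.15 at 24 h and 1.16 ± 0.15 at 48 h and 40 nM. HSD11B1, which regenerates active cortisol from cortisone, was dim and rose by 0.30 ± 0.08 and 0.47 ± 0.08 at these times, and SRD5A1, a steroid reductase, fell by 0.50 ± 0.06 at 48 h. Of 4 measured receptors for other steroids, ESR1 rose by 0.23 ± 0.07 at 24 h and the others were not called against vehicle.

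Patterns most like those of NR3C1 and FKBP5 were sought over the 15 arrays, each taken as its deviation from the vehicle mean of its time, among 5503 of the brighter and more variable genes. The 3 genes most like NR3C1 were the lipase ABHD4, the antiproliferative TOB1 and the coatomer subunit COPA, with Pearson's r of 0.975, 0.972 and 0.971. Those most like FKBP5 were UBR7, the deubiquitinase USP1 and the fatty acyl reductase FAR1 (0.986, 0.984 and 0.982). These correlations describe arrays that share 5 groups and their vehicles, and genes picked as the highest of many. TOB1 stood at 0.83 ± 0.05 against vehicle at 24 h and 40 nM, at 0.006 ± 0.05 at 48 h and 40 nM and at -0.33 ± 0.05 at 10 nM. USP1 stood at -0.93 ± 0.06, -0.16 ± 0.06 and -0.15 ± 0.06 in the same 3 comparisons, of which only the first was called. At 48 h and 40 nM ABHD4 (-0.20 ± 0.06), UBR7 (-0.32 ± 0.07) and FAR1 (-0.22 ± 0.07) were called lower, and COPA (0.10 ± 0.06) was not called. At 10 nM ABHD4 (-0.64 ± 0.06), COPA (-0.34 ± 0.06) and UBR7 (-0.30 ± 0.07) were called lower, and FAR1 (-0.14 ± 0.07) was not called.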

How the data were processed

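The authors deposited log2 RMA values, 1 per probe set and array, and the submitters' processing notes name RMA and Affymetrix Expression Console, without versions. RMA subtracts background, aligns arrays by quantiles and summarises probes, so shifts common to all genes are removed, whatever their size. Arrays have no read depth; precision is limited by 3 arrays per group. A log2 change had a standard error of 0.097 at the median of all genes.

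Of 54675 probe sets 62 were controls, 41091 had 1 symbol, 1801 had more, and 11721 are not named here. Current symbols came from RefSeq by gene ID for 41037 of them. Means of the 5 groups were fitted by limma 3.58.1 (R 4.3.3) with lmFit and eBayes, two-sided, for 19775 genes by their brightest probe set and again for 54613 probe sets, with Benjamini-Hochberg adjustment and a threshold of 0.05. The fit was tested on simulated data with independent noise and planted changes, which checks the computation and not the calls on these arrays. The members and lists were chosen with earlier results of these data known, so no list was tested as a set. From each list the text names up to 4 of the called genes with the largest change at 24 h and at 48 h with 40 nM, and HSP90AA1, HSP90AB1, PTGES3 and FKBP4 of the chaperones. No pairing of arrays by replicate number was seen, and the main fit used none. The alternatives were cyclic loess, array medians subtracted, a filter on dim genes, all sets of a gene averaged, sets ending in _x_at or _s_at left out, all probe sets fitted together, a replicate block, the compared groups alone, an intensity trend with a robust prior, each array left out and, added after the data were seen, the 10 nM arrays left out.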

Additional observations from a re-analysis of the deposited data

Results flagged for a closer look

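The effect of 40 nM geldanamycin differed between 48 h and 24 h, by limma's test of the difference itself, for 6 of the 8 genes by their brightest probe sets, where 3420 of all 19775 genes were called. With the probe sets of a gene averaged, the calls of TSC22D3, KLF9 and CRISPLD2 ended and those of NR3C1, FKBP5 and SGK1 stayed. How many of all genes were called with averaged sets is not given here. On the log2 scale the effect at 48 h minus that at 24 h was -0.56 for NR3C1, 0.42 for FKBP5, 0.57 for TSC22D3, 0.58 for SGK1, -0.57 for KLF9 and -0.40 for CRISPLD2. The test covers the difference between effects and not levels at 48 h set against those at 24 h. It cannot tell time apart from a difference in scale between the separately normalized arrays of 24 h and of 48 h. For NR3C1, FKBP5 and SGK1 the change at 48 h was not called, and for TSC22D3 it was.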

How the results depend on the processing

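Results of the 8 genes were recomputed under each alternative. Apart from fits without 1 array, 340 values stayed on the same side of the threshold, 16 were no longer called, 9 were newly called and 4 changed sign with a call involved; without 1 array 596 stayed, 2 were lost and 2 newly called. Averaging the probe sets of a gene gave those 4 sign changes, with KLF9 at -0.058 for 40 nM at 24 h, DUSP1 at -0.34 for 10 nM with vehicle, and DUSP1 at 0.25 and FKBP5 at 0.24 for 40 nM with 10 nM; the other sets of these genes enter that mean. It left 1 gene called for 40 nM at 48 h and 3 for the difference of effects. Without sets ending in _x_at or _s_at only 6 genes had a probe set, and 3 were called for 40 nM at 24 h, 1 in each of the 3 comparisons at 48 h and 3 for the difference of effects. That alternative reads NR3C1 from its dimmest set and TSC22D3 from one near 3. For it and for the averaged sets, the numbers of all genes called are not given here. With cyclic loess 4 of the 8 genes were called between the doses, where 5946 of all 19775 genes were called instead of 5211. The cause was not tested. In the fits that left out 1 array, 4 to 5 genes were called for 40 nM at 24 h, 2 to 3 between the doses, and 3, 2 and 6 for 10 nM, for 40 nM at 48 h and for the difference of effects in every such fit. Of all genes these fits called 5632 to 6286 for 40 nM at 24 h and 4231 to 5515 between the doses. They called 4278 to 5513 for 10 nM, 3329 to 4485 for 40 nM at 48 h and 2820 to 3527 for the difference.

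With the replicate number as a block, 5, 3, 2, 2 and 6 of the 8 genes were called in the 5 comparisons. These counts were the same without the block, whereas fewer of all 19775 genes were called with it. The block gave 5638 for 40 nM at 24 h instead of 6222, and 4516 for 10 nM instead of 5204. For 40 nM at 48 h it gave 3394 instead of 4207. Between the doses it gave 4398 instead of 5211, and for the difference of effects 2639 instead of 3420. Deviations of same-numbered arrays correlated between -0.41 and 0.29, and an array correlated best with its own number in 7 of 24 cases. No pairing by number was seen, but deviations from means of 3 arrays cannot exclude it. Without the 3 arrays at 10 nM, 5, 2 and 6 of the 8 genes were called for 40 nM at 24 h, for 40 nM at 48 h and for the difference of effects. Of all 19775 genes 6034, 3971 and 3152 were called in these comparisons. ZBTB16 and several other probe sets near 3 lie in the dim range, where a change may not be seen.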

Other observations

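Relatives of the target genes were called in both directions. Of 12 measured paralogs 5 rose and 2 fell at 24 h and 40 nM, and 3 rose and 4 fell at 48 h and 40 nM, where 14.8% and 16.7% of all genes rose and fell in the first comparison and 10.5% and 10.7% in the second; the list was not tested against them. The clock gene PER2 rose by 0.66 ± 0.10 at 24 h and fell by 0.38 ± 0.10 at 48 h and 40 nM, and the difference between these effects was -1.04 ± 0.14 (limma adjusted p = 1.0e-04). Of the phosphatases related to DUSP1, the nuclear ERK phosphatase DUSP5 rose by 1.24 ± 0.09 at 24 h and by 1.04 ± 0.09 at 48 h and 40 nM. DUSP10 rose by 0.80 ± 0.12 and 0.78 ± 0.12 in these comparisons, whereas the cytosolic ERK phosphatase DUSP6 fell by 0.82 ± 0.11 at 24 h and stood at -0.08 ± 0.11 at 48 h and 40 nM. At 10 nM DUSP6 rose by 0.67 ± 0.11. KLF13 and SGK2 fell by 0.49 ± 0.07 and 0.39 ± 0.09 at 48 h and 40 nM.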
